A study of Rattus norvegicus with 12 samples.

Results

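In the retinas of Royal College of Surgeons (RCS) rats, 69 of 32883 annotated genes lay below the 100 most abundant nuclear genes at postnatal day 21 (p21) and had fallen at least 4-fold by p60. These genes were chosen by their level in CPM, the count of a gene divided by the library total and multiplied by 1000000. The rule asked for a mean of at least 2 CPM over the 6 p21 libraries, and for a ratio of the p21 to the p60 mean, with 0.5 CPM added to both, of at least 4. It also asked that every p21 library lie above every p60 library. Genes of the mitochondrial genome, of chromosomes X and Y, and the 100 nuclear genes of highest mean p21 level were left out, so that 12767 genes could be taken by their level and chromosome. Since the fall from p21 to p60 chose the members, it is described here without a test.

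RCS rats carry a deletion in *Mertk*, the receptor with which the retinal pigment epithelium engulfs the shed tips of photoreceptor outer segments. Debris accumulates beneath the retina, and the photoreceptors, first rods and later cones, degenerate over the weeks after weaning. Photoreceptors make up most cells of a rodent retina, and their outer segments hold the proteins that absorb light and turn it into an electrical signal. In whole retinas, fewer cells of a type and less RNA per cell cannot be told apart.

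Whole retinas were sequenced in 12 libraries of poly(A) RNA, 3 for each combination of age and line. The immunocompetent rats are labelled RCS-p+, WT and male, and the athymic rats are labelled RCS-p+/Foxn1mu and female. *Foxn1* is required for the thymus, where T cells mature, so both lines share the retinal disease and differ in the labels by this mutation and by sex. Each library has its own number (1 to 3 and 19 to 21 immunocompetent, 4 to 6 and 22 to 24 athymic), and the labels do not state whether the libraries came from separate animals, so p-values measure the spread between these libraries. Total counts were between 13852516 and 16725355 per library. Genes carry Ensembl identifiers and no names in the files, and 0 identifiers could be matched to a gene name, so retinal cell type markers could not be checked and the members are given by identifier or by their position in the Rnor_6.0 genome.

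Some libraries stood apart. Among those labelled female, libraries 4, 5 and 22 had 269 to 328 CPM on chromosome Y, where the libraries labelled male had 229 to 323 and libraries 6, 23 and 24 had 8.79 to 23.2. With 0.5 CPM added, a set of 19 genes was at least 4 times higher in library 4 than in any other p21 library and at least 4 times higher in library 19 than in libraries 20 to 23, and summed to 16021 CPM in library 4 and 6449 in library 19. The set reached 2241 CPM in library 24 and 77.2 to 1832 in the other libraries. It holds 0 of the 69 members, and the rule took 68 genes without libraries 4, 19 and 24, of which 62 were members.

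The members covered a wide range of levels at p21. The lowest had a mean of 3.87 CPM, the median member 90.2 and the highest 700.4. The median of the 12767 genes was 30.6 CPM and their upper quartile 71.9. The rule itself places the members below the top 100 genes, and the median member was above most other genes. The rule also shapes the lower end, since the added 0.5 CPM makes a ratio of 4 harder to reach for genes of low level. Without it the rule took 92 genes, including all 69 members. A mean below 10 CPM was found for 7 members and one of 10 to 100 for 31, and the quartiles were 25.1 and 234 CPM. Per kilobase of exonic length, which allows levels of different genes to be compared, the median member had 45.1 CPM per kilobase at p21 (1.75 to 668) and 9.45 at p60 (0.10 to 164). The median over the 12767 genes was 13.4 CPM per kilobase at p21.

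No member was absent at p60. Every member had at least 1 count in every p60 library, and 65 had at least 10 counts in all 12 libraries. The mean p60 level was between 0.222 and 155 CPM, where 4 members were below 1 CPM and 8 were above 100. The median member kept 20% of its p21 mean, and the members between the lower and upper quartile kept 17.2% to 22.6%. Over the 12767 genes, the median was 113%. These percentages use library totals and depend on the scaling. With TMM scaling in edgeR, the median log2 fold change from p21 to p60 over all tested genes was 0.01 in each line.

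**Figure D1:**
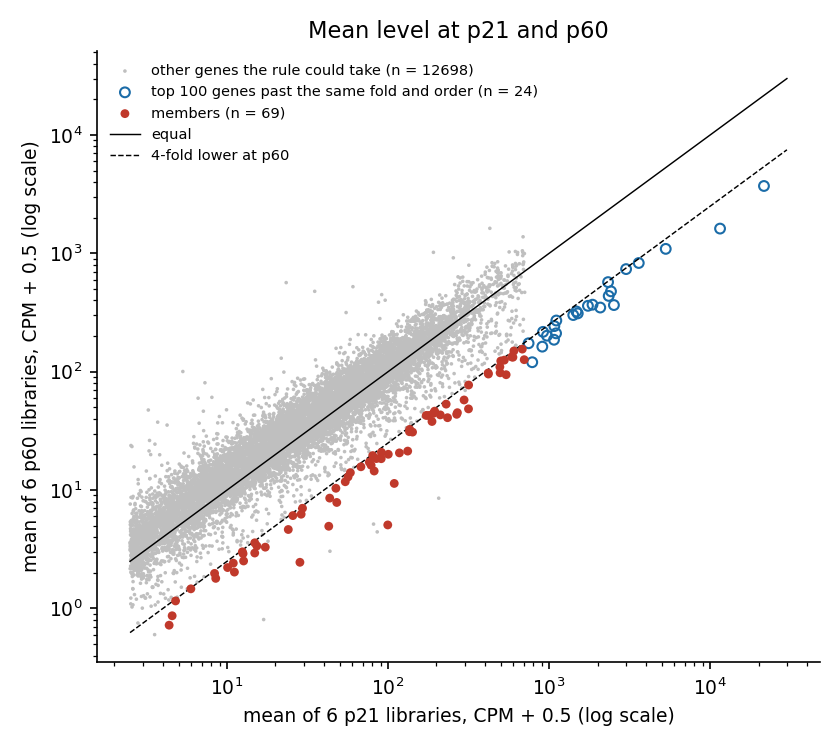
Mean level of each gene over the 6 p21 libraries (x axis) and the 6 p60 libraries (y axis), as CPM + 0.5 on log scales. The 69 members lie below the dashed line of a 4-fold fall, most of them close to it, over the whole range of p21 levels from 3.87 to 700.4 CPM, and the 24 more abundant genes past the same fold continue the band upwards.

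The median ratio was 4.58, where 45 members had a ratio from 4 to 5, 15 from 5 to 6, 5 from 6 to 8, and 4 above 8. Between the p21 level and the ratio, Spearman's rho was -0.0373 across the 69 members, which share the same 12 libraries. The ratio holds the added 0.5 CPM, which lowers it most for members of low level. Outside the rule, 105 genes whose libraries did not overlap had a ratio from 3 to 4, so the limit of 4 cuts through a continuous range. The 3 members just inside the limit had ratios of 4.04, 4.04 and 4.07, and the 3 genes just outside had 3.95, 3.96 and 3.96. Every p21 library lay above every p60 library for 13.8% of the 12767 genes, and for all members by the rule. A further 10 genes had a ratio of at least 4 with overlapping libraries and were not taken. Scaling shifts these values. With TMM scaling, the lowest ratio of a member was 4.51 and the median 5.20.

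The member with the highest p21 level was ENSRNOG00000003738, on the plus strand of chromosome 13 (106751625 to 107427329). It is also the longest member, where 73 separate exonic stretches add up to 15650 bases over a span of 675705 bases. It had 641.7, 697.5 and 670.7 CPM in the immunocompetent and 691, 741.9 and 759.3 in the athymic libraries at p21. At p60 it had 122.4, 106.6 and 97.3 CPM in the immunocompetent and 139.1, 154.5 and 135.5 in the athymic libraries. The p60 libraries kept 17.98% of the p21 mean, and the 3 athymic libraries lay above the 3 immunocompetent libraries at p60.

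ENSRNOG00000012134, on the minus strand of chromosome 10 (94505026 to 94557764), had the largest ratio, 19.6. Its p21 libraries had 96.6, 97.8 and 92.4 CPM in the immunocompetent line and 108, 110.5 and 89.1 in the athymic line. Its p60 libraries had 4.87, 6.85 and 3.11 CPM in the immunocompetent line and 3.79, 4.53 and 4.30 in the athymic line. The member kept 5.17% of its p21 mean in the immunocompetent and 4.10% in the athymic line, and the libraries of the lines overlapped at both ages.

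**Figure D2:**
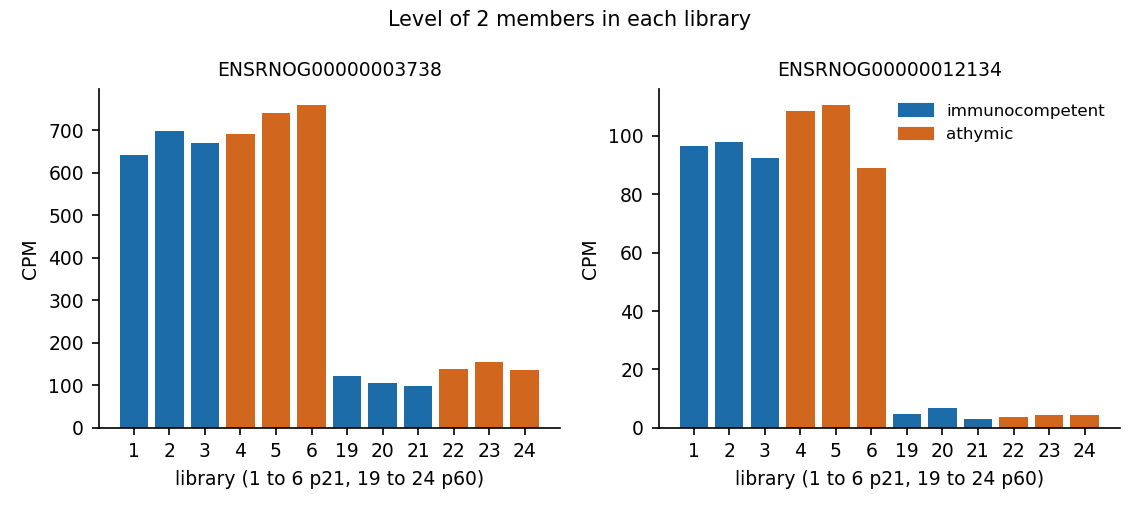
CPM of ENSRNOG00000003738 (left) and ENSRNOG00000012134 (right) in each library, with 1 bar per library coloured by line. The first fell from between 641.7 and 759.3 to between 97.3 and 154.5 CPM, and the second from between 89.1 and 110.5 to between 3.11 and 6.85 CPM.

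The next largest ratios were as follows. One gene on chromosome 10 (31431809 to 31493419) had 29.4, 30.9 and 31.0 CPM in the immunocompetent and 19.6, 28.0 and 28.3 in the athymic libraries at p21, and 1.48 to 2.52 CPM over the 6 p60 libraries, a ratio of 11.6. The member on chromosome 9 (94279155 to 94283919) had 77.4, 75 and 119 CPM in the immunocompetent and 109, 116.5 and 155 in the athymic libraries at p21. It had 7.87 to 15.1 CPM at p60, with 10.01% of the p21 mean left in the immunocompetent and 9.99% in the athymic line. For a gene on chromosome 13 (112031594 to 112073186), the p21 libraries had 37.3 to 48.4 CPM and the p60 libraries 2.49 to 6.08, a ratio of 8.66. In each of these genes the lines overlapped at p60.

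At the other end, the members that stayed highest at p60 had kept more. On chromosome 4, a gene (113559427 to 113610243) had 715, 709 and 737 CPM in the immunocompetent and 590, 693 and 645 in the athymic libraries at p21. It had 158, 155 and 134 CPM in the immunocompetent and 146, 170.5 and 165 in the athymic libraries at p60. Another on chromosome 19 (26066127 to 26073194) fell from 604.4 ± 58.2 to 149.3 ± 17.45 CPM (SD, n = 6 libraries), which was the smallest ratio of all members, 4.04. The member with the lowest level at p60, on chromosome 10 (56953691 to 56962161), had 5.18, 4.82 and 4.91 CPM in the immunocompetent and 3.15, 1.77 and 3.41 in the athymic libraries at p21, and 0.141 to 0.339 CPM at p60. Between 2 and 5 counts per p60 library lie behind the latter values, so its ratio of 6.06 is less precise than those above.

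Together the members held 1.19% ± 0.0398 of the counts in a p21 library and 0.248% ± 0.0179 in a p60 library (SD, n = 6 libraries). Their summed level was 12440, 12108 and 11789 CPM in the immunocompetent and 11280, 12004 and 11678 in the athymic libraries at p21. At p60 it was 2376, 2448 and 2287 CPM in the immunocompetent and 2543, 2799 and 2415 in the athymic libraries. Library 1 was highest and library 4 lowest at p21, and library 23 was highest and library 21 lowest at p60, whereas the lines overlapped at both ages. The summed level left at p60 was 19.6% of that at p21 in the immunocompetent line and 22.2% in the athymic line. With TMM scaling, 18.3% was left over both lines.

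**Figure D3:**
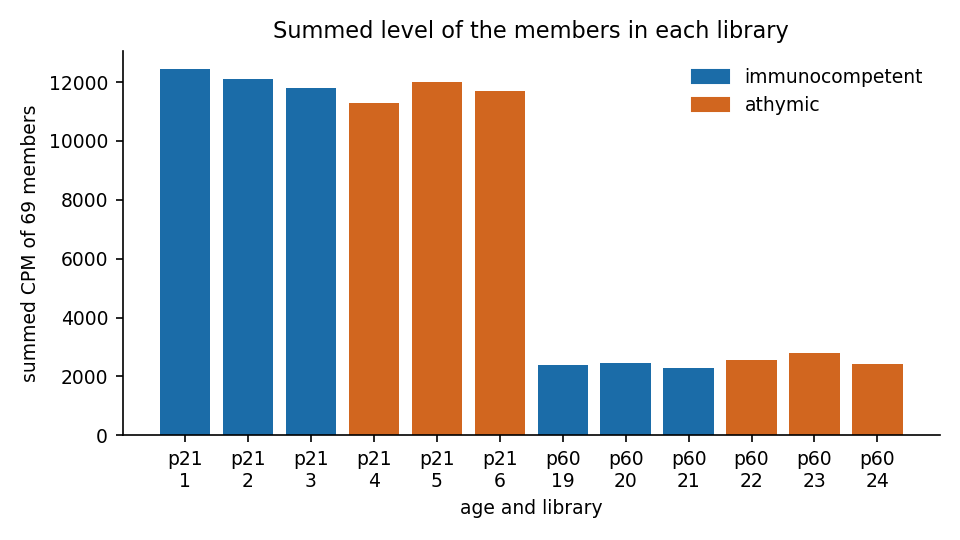
Summed CPM of the 69 members (y axis) in each library (x axis, with age and library number), coloured by line. The 6 p21 libraries lie between 11280 and 12440 CPM and the 6 p60 libraries between 2287 and 2799.

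Libraries of the same age differed in the same direction for many members. Among the 6 p60 libraries, library 23 was the highest for 32 of the 69 members and the lowest for 0, whereas libraries 21 and 24 were each the lowest for 21 members and library 19 for 17. Over the 12767 genes, library 23 was the highest for 16.1% and the lowest for 16.2%, and libraries 21, 24 and 19 were the lowest for 14.6%, 17.9% and 20.8%. At p21, library 1 was the highest for 26 members and library 4 the lowest for 23, where these were 17.7% and 17.6% over the 12767 genes. Library 4 also held the largest sum of the set of 19 genes, and libraries 19 and 24 raised ones, whereas library 23 had the lowest sum of that set, 77.2 CPM. Other libraries went the other way. Library 21 had only 93.1 CPM of the set, and at p21 library 5 had less of it (156 CPM) than library 1 (180 CPM). The part of that set in the order of the libraries was not tested. The median coefficient of variation of a member was 8.66% over the p21 libraries and 13.2% over the p60 libraries, and 9.08% and 8.24% over the 12767 genes. The rule favours members with a small spread at both ages, since the libraries of the ages may not overlap. The mean p60 level of the members had a median of 17.9 CPM and a lower quartile of 4.14, and low counts vary more in proportion. The part of low counts in the spread at p60 was not tested.

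**Figure D4:**
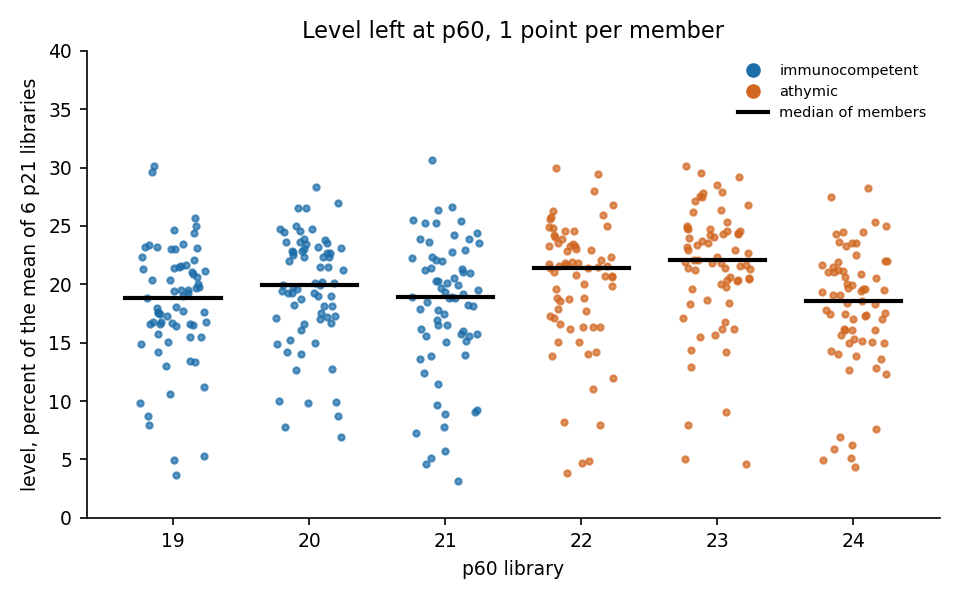
Level of each of the 69 members in each p60 library (x axis, library number) as a percent of its mean over the 6 p21 libraries (y axis), with 1 point per member and a line at the median of the members. The medians are 18.8%, 20% and 18.9% in the immunocompetent libraries 19 to 21, and 21.4%, 22.1% and 18.6% in the athymic libraries 22 to 24.

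The 100 nuclear genes of highest p21 level, which the rule leaves out, held 24 genes that passed the same fold and order of libraries. Their mean p21 level was between 746 and 21607 CPM, and together they held 7.35% ± 0.659 of the counts in a p21 library and 1.36% ± 0.135 in a p60 library (SD, n = 6 libraries). Their median ratio was 4.85, with a range from 4.07 to 7.12, compared with a median of 4.58 and a range from 4.04 to 19.6 for the members. Whether these ratios differ was not tested, since the same contrast chose both sets. Library 23 was the highest p60 library for 22 of the 24 genes, and library 1 the highest p21 library for 18.

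The difference between the athymic and the immunocompetent line was not used by the rule and was tested. All 69 members passed the filter on low counts, and a model of the 4 groups was fitted to 16069 genes with edgeR's quasi-likelihood test and Benjamini-Hochberg adjustment over all of them. At p21, 0 members differed between the lines at an adjusted p under 0.05, where the share of all genes was also 0%. The lowest adjusted p of a member was 0.216. At an unadjusted p under 0.05 there were 9 members (13%), against 14% of all genes. DESeq2 also called 0 members at p21, against 1.23% of all genes. The median log2 fold change of the members, athymic over immunocompetent, was -0.07 at p21, and 50 of 69 were negative. Over all genes it was -0.010, with 47.7% positive. Without library 1, the median of the members was -0.01, with 37 negative, and that of all genes 0.016. The size of the median thus depended on this library, while it stayed below that of all genes. The 9 members at an unadjusted p under 0.05 became 1 without library 1 (1.45%, against 9.51% of all genes) and 3 without library 2 (4.35%, against 9.92%). There were 5 without library 5 (7.25%, against 12.6%) and 4 without library 6 (5.8%, against 10.6%). Without library 3 there were 17 (24.6%, against 16.7%). Every athymic library lay below every immunocompetent library for 14 members (20.3%), against 8.68% of all genes, and above for 3 members (4.35%), against 7.96%.

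At p60, again 0 members were called by edgeR at an adjusted p under 0.05, against 0.0124% of all genes, and the lowest adjusted p was 0.223. At an unadjusted p under 0.05 there were 11 members (15.9%), of which 10 were higher in the athymic line, against 8.48% of all genes. The median log2 fold change was 0.08, with 48 of 69 members higher in the athymic line. The median over all genes was -0.003, with 49.2% positive. The median of the members also depended on single libraries. It was 0.01 without library 23, with 38 of 69 higher, 0.14 without library 20 and 0.15 without library 24. The 11 members at an unadjusted p under 0.05 became 20 without library 24 (29%, against 9.25% of all genes). Every athymic library lay above every immunocompetent library for 10 members (14.5%), against 7.74% of all genes, and below for 1 member (1.45%), against 7.39%.

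With DESeq2 in place of edgeR, 5 members were called at p60, each higher in the athymic line, against 0.436% of all genes. With edgeR and no filter on low counts, 2 members were called, against 0.109% of all genes. ENSRNOG00000003738 was among them, with a log2 fold change of 0.40 (standard error 0.0793) and an adjusted p of 0.223 by edgeR and 0.000784 by DESeq2. A member on chromosome 14 (9396512 to 9456990) had 87.3, 84.2 and 79.05 CPM in the immunocompetent and 100, 126 and 105.8 in the athymic libraries at p60. The log2 fold change of this gene was 0.41, with a standard error of 0.0787 and an adjusted p of 0.223 by edgeR and 0.000663 by DESeq2, and the libraries of the lines did not overlap. A member on chromosome 9 (121946495 to 121972055) had 35.65, 35.6 and 39.3 CPM in the immunocompetent and 46.25, 52.65 and 43.65 in the athymic libraries at p60, also without overlap. Here the log2 fold change was 0.37, with a standard error of 0.077 and an adjusted p of 0.238 by edgeR and 0.00736 by DESeq2. The remaining members called by DESeq2, on chromosomes 5 and 19, had log2 fold changes of 0.34 and 0.48 by edgeR, both with an adjusted p of 0.238. These calls therefore depend on the tool and, within edgeR, on the filter on low counts. Line and labelled sex cannot be told apart in this design. The labels of sex are themselves uncertain, since athymic libraries 4, 5 and 22 had chromosome Y levels near those of the libraries labelled male.

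Whether the fall differed between the lines was tested as the interaction of age and line. By edgeR, 0 members passed an adjusted p under 0.05, against 0.00622% of all genes, and the lowest adjusted p was 0.207. At an unadjusted p under 0.05 there were 13 members (18.8%), each with a smaller fall in the athymic line, against 9.3% of all genes. The median interaction log2 fold change was 0.19, with 54 of 69 members positive. The median over all genes was 0.003, with 50.7% positive. The median of the members was 0.11 without library 1 and 0.11 without library 23. The 13 members at an unadjusted p under 0.05 became 5 without library 1 (7.25%, against 8.95% of all genes) and 8 without library 2 (11.6%, against 7.36%). There were 7 without library 4 (10.1%, against 9.58%) and 6 without library 23 (8.7%, against 6.84%). Without library 24 there were 25 (36.2%, against 11.3%). DESeq2 called 2 members, against 0.909% of all genes, on chromosome 9 (121946495 to 121972055) and on chromosome 7 (61165640 to 61200879), with edgeR values of 0.41 (standard error 0.106, adjusted p = 0.207) and 0.36 (standard error 0.101, adjusted p = 0.241). The chromosome 7 member had 565.5, 555 and 537 CPM in the immunocompetent and 520.0, 504 and 481 in the athymic libraries at p21, and 107, 124.5 and 116 and then 132, 145 and 124.4 at p60. Its athymic libraries lay below the immunocompetent ones at p21, whereas the lines overlapped at p60.

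In percent of the p21 mean of the same line, 53 members had more left at p60 in the athymic line and 16 had less. This split comes from the same libraries as the interaction, where 50.7% of all genes were positive. The median difference, athymic minus immunocompetent, was 2.5 percentage points (-8.84 to 14.6), and 59 members lay within 5 points. Without library 23 the median difference was 1.53 points, with 46 members having more left in the athymic line. The largest difference was in a low member on chromosome 17 (43797721 to 43798383), with 8.49% left in the immunocompetent and 23.1% in the athymic line. It had 0.424, 0.543 and 0.198 CPM in the immunocompetent and 1.26, 0.841 and 0.673 in the athymic libraries at p60, which rest on 3 to 20 counts per library. For the interaction, its log2 fold change of 1.45 had a standard error of 0.439 and an adjusted p of 0.286 by edgeR.

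**Figure D5:**
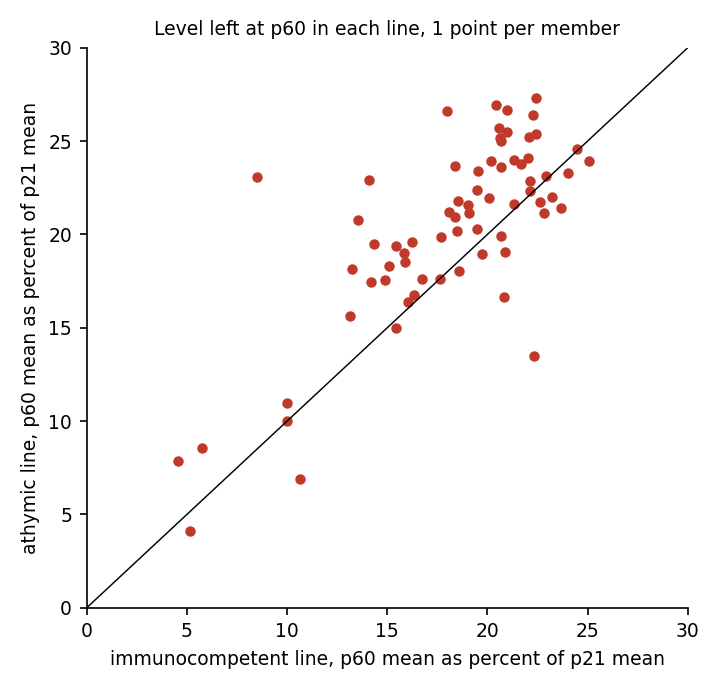
Level left at p60 as a percent of the p21 mean of the same line, for the immunocompetent (x axis) and the athymic line (y axis), with 1 point per member and a line of equality. Above the line lie 53 of the 69 members and below it 16, and 59 lie within 5 percentage points of equality.

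To examine the fall in libraries that had not chosen the genes, the rule was applied to the 6 libraries of each line alone and the genes were tested in the other line with edgeR's quasi-likelihood test over all genes. In the immunocompetent line, the rule took 92 genes, of which 64 (69.6%) were members, and these were 92.8% of the members. Of the 90 that could be tested in the athymic line, 86 (95.6%) were lower at p60 at an adjusted p under 0.05, against 24.6% of all genes, with a median log2 fold change of -2.31 (median standard error 0.11). In the athymic line, the rule took 66 genes, of which 54 (81.8%) were members, and these were 78.3% of the members. Of the 65 tested in the immunocompetent line, 63 (96.9%) were lower at p60, against 25.8% of all genes, with a median log2 fold change of -2.56 (median standard error 0.12). The median over all genes was 0.01 in both tests. These shares depended on the libraries that chose the genes. Without library 24 the rule took 94 genes in the athymic line, and 54 of the 91 tested (59.3%) were lower in the immunocompetent line. Without library 1 it took 113 genes in the immunocompetent line, and 82 of the 106 tested (77.4%) were lower in the athymic line.

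The size of the fall often did not reach the limit of the rule in the other line. Of the 92 genes taken in the immunocompetent line, 51 had a ratio of at least 4 in the athymic line, and of the 66 taken in the athymic line, 50 had such a ratio in the immunocompetent line. The median ratio of the first was 4.81 in the line that chose them and 4.18 in the other, and that of the second 4.57 and 4.8. Genes chosen just above a limit can fall below it in other libraries. The rule took 50 genes in both lines alone, which were all members. Of the other members, 14 were taken in the immunocompetent line alone, 4 in the athymic line alone and 1 in neither. The 6 tested genes that were not called lower in the other line, of which 4 were called higher, were no members. Membership uses the libraries of both lines, so this and the overlap above were largely set by the rule. Of tested genes that were no members, 22 of 26 were called lower in the athymic line and 9 of 11 in the immunocompetent line. Chosen without library 1, 20 of 44 such genes were lower in the athymic line. Chosen without library 24, 4 of 41 were lower in the immunocompetent line.

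The members lay on 19 of the 20 autosomes, with none among the 462 genes of chromosome 12 that the rule could take. Chromosome 7 held the most, with 11 members (1.3% of its 846 genes), followed by chromosome 10 with 8 (0.728% of 1099). The share was 1.29% on chromosome 16 (5 of 388) and 1.12% on chromosome 17 (4 of 358). Over the genome the share was 0.54%. On chromosome 7 the members were spread from 13062196 to 144993652, with p21 means between 4.06 and 527 CPM and ratios between 4.07 and 5.71. The counts per chromosome are small and are given as a description.

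Neighbouring members were rare. There were 6 pairs less than 1 Mb apart, and 2 of these had no other annotated gene between them. The closest pair was on chromosome 1, where a single-exon gene of 148 bases on the minus strand (225084960 to 225085107) lay 174 bases from a gene on the plus strand (225085282 to 225087266). The first fell from 14.8 to 2.87 CPM and the second from 316 to 48.0 CPM. The strand setting of the counting is not known, so counts of such close genes on opposite strands are uncertain. The other pair without a gene between was on chromosome 16, where a gene from 9772688 to 9847444 fell from 78.0 to 15.7 CPM and a gene from 9896027 to 9899544 fell from 56.0 to 12.4 CPM, both on the plus strand.

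The median exonic length of the members was 1963 bases, against 2427 for the 12767 genes, and the median number of separate exonic stretches was 9 in both. The median span was 19062 bases, against 21874. A single exonic stretch was annotated for 4 members (5.8%), against 4.59%, and 38 members were on the plus and 31 on the minus strand. Exons of 5 members (7.25%) overlapped exons of another gene, against 8.78%. In 4 of these the partner was below 0.5 CPM at both ages. In the fifth, on chromosome 10 (15156207 to 15159894), the member fell from 14.4 to 3.08 CPM while its partner on the opposite strand had 48.4 CPM at p21 and 58.9 at p60, so the counts of this member are uncertain.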

How the data were processed

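Poly(A) RNA of whole retinas was sequenced as paired-end reads. The authors mapped the reads with STAR, used featureCounts to assign them to genes, and deposited the raw counts of the 12 libraries. The submitters' processing notes name STAR 2.5.2b, Subread 1.5.2 and Rnor_6.0. The strand setting and the treatment of reads with several positions are not given in the sources used here. The library kit is not named as a stranded one, so overlapping genes are uncertain. Counts were converted to CPM for the levels. Tests used R 4.3.3, edgeR 4.0.16 and DESeq2 1.42.0, with genes kept by filterByExpr (minimum count of 10, minimum total of 15), TMM factors (0.937 ± 0.016 at p21 and 1.07 ± 0.00324 at p60, SD, n = 6) and the quasi-likelihood test. Plots were drawn with matplotlib 3.10.9.

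The groups were taken from the sample titles. The members and lists were chosen with earlier results of these data known. The rule for naming genes and the pathway and marker lists need gene symbols, which could not be matched, so the 2 results on pathway lists were not run. In their place, the member of highest p21 level and that of largest ratio are named by identifier and others by position. The tests were tried on simulated data before use. Alternatives were other scalings, filters, tools, limits and sets of libraries, as given at the end. No library was left out.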

Additional observations from a re-analysis of the deposited data

Results flagged for a closer look

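Dixon's ratio, which compares the gap of the most extreme library with the range of its group, was computed for 32 groups of 6 libraries of the same age. It passed the 95% critical value in 1 group, where chance gives about 1 in 20. These groups were the summed level of the members, that of the 24 more abundant genes, and the 14 members that were highest, lowest, most changed or of lowest p between the lines, each at both ages. The member on chromosome 10 from 31431809 to 31493419 had 19.62 CPM in library 4, whereas the other p21 libraries had 27.95 to 30.97. Without library 4 its ratio was 12.2 in place of 11.6. Over all 69 members at both ages, 6 of 138 groups held such a library.

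A gene on chromosome 1 (229003961 to 229019527), taken by the rule in the athymic line alone and no member, differed in its change with age. The interaction log2 fold change was -3.82 and its adjusted p by edgeR 0.00054. It had 4.4 to 6.12 CPM at p21 and 8.86 to 11.1 at p60 in the immunocompetent libraries, and 6.35 to 7.59 at p21 and 0.517 to 1.14 at p60 in the athymic libraries, so 3 of 3 athymic libraries were lower at p60.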

How the results depend on the processing

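With TMM or DESeq2 size factors in place of library totals, the rule took 109 genes, including all 69 members. It took 174 genes at a ratio of at least 3, 4 at a ratio of at least 8, and 92 without the added 0.5 CPM. Leaving out 1 library gave 66 to 75 genes, with at least 64 of the members each time. Between the lines at p60, 5 members were called with DESeq2 in place of edgeR, where 0.436% of all genes were called. With no filter on low counts, 2 members were called, where 0.109% of all genes were. For the interaction, 2 members were called with DESeq2, where 0.909% of all genes were. The cause of these differences was not tested. Of 119 alternative values, 112 were within 1.5 times the main count. Where the main count was 0, between the lines and for the interaction, this only means 0 again. Counts and not shares were compared, so the 54 of 91 genes without library 24 are within this limit. Without libraries 4, 19 and 24, or without libraries 4, 5 and 22, 0 members were called in either comparison of the lines or the interaction. The second choice leaves 1 athymic library at p21, which is assumed to vary like the other groups. Leaving out each library in turn gave 82 of 106 to 92 of 97 genes lower in the athymic line among those the immunocompetent line chose, and 54 of 91 to 71 of 73 the other way, where the lowest share was 77.4% without library 1 and 59.3% without library 24. Alternatives for the pathway lists were not run. No paired analysis was possible because the groups share no replicate number. The 4 members below 1 CPM at p60 rest on few counts there.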

Other observations

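Of the genes taken in the immunocompetent line, 3 were higher at p60 in the athymic line. The one on chromosome 15 (52211544 to 52214616) had 12.4, 157 and 148 CPM in libraries 1 to 3 and 16, 9.11 and 0.0598 in libraries 4 to 6. At p60 it had 5.86, 5.84 and 11.2 CPM in libraries 19 to 21 and 155, 130 and 18.5 in libraries 22 to 24. It was thus high in libraries 2, 3, 22 and 23. Another on chromosome 6 (77418096 to 77421286) had 4.46 to 5.12 CPM in the same 4 libraries and at most 0.72 in the other 8, and a gene on chromosome 1 (83933942 to 83947821) had 15.2 to 15.7 CPM in them and at most 2.59 in the others. These genes lie on different chromosomes and are no members, and they were chosen for description after their values were seen.

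A gene on chromosome 20 (2704148 to 2707120) had 8.16 to 9.96 CPM in libraries 1 to 3 and 6.16 in library 6, but 0.536 and 0.565 in libraries 4 and 5. At p60 it had 0.882 to 1.39 CPM in the immunocompetent libraries and 4.99, 5.56 and 1.82 in libraries 22 to 24. No explanation of these patterns was tested.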
